A study of Mus musculus with 15 samples.

Results

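The 40 genes described here are interferon-stimulated genes of the mouse heart, named one by one from Ifit1 to Eif2ak2 and kept where their expected read counts, summed over all 15 hearts sequenced, reached 10. All 40 were found and all 40 reached that sum, among 26862 genes that did so and 55401 genes in the tables. Membership went by name and total count, and the names were listed with earlier results of these data known. The hearts came from male C57BL6 mice, 12 weeks old, that received isoproterenol, an agonist of the β-adrenergic receptors, under the skin once a day (50 mg/kg/day) over 4, 8 or 11 days, or saline in its place. RNA of a frozen piece of ventricle was sequenced as total RNA from 4 saline, 4 4-day, 3 8-day and 4 11-day hearts, one library per heart, called saline A to D and likewise for the other groups. One more 8-day library was set aside by the study for its quality and is not used here. How long the saline mice were injected is given only as a similar period, so one saline group stood for all 3 times and each comparison with saline used the same 4 libraries.

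Interferons are secreted proteins by which cells announce infection or stray nucleic acid to their neighbours. Type I interferons bind a receptor made of Ifnar1 and Ifnar2, whose kinases Jak1 and Tyk2 phosphorylate Stat2. With Irf9 it forms part of a complex that enters the nucleus, binds the interferon-stimulated response element and switches on genes whose products sense foreign RNA, block its translation or tag proteins with Isg15. Type II interferon acts at another element, GAS, and is the stronger inducer of the guanylate-binding and immunity-related GTPases. In the heart these genes are expressed at a low level without infection, in macrophages, endothelial cells, fibroblasts and cardiomyocytes.

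The libraries held 25.4 to 117.8 M expected counts (M, counts in units of 1e6), of which 47.5 to 58.4% fell on the mitochondrial genome. The cardiomyocyte genes Myh6 and Ttn stood at 15000 to 21500 and 36500 to 43800 CPM (counts per 1e6 counts of the library, scaled between libraries by TMM, edgeR's trimmed mean of M-values), while the atrial light chain Myl7 stood at 0.139 CPM or less. Myl7 was 1 of 5 atrial markers, which summed to 6.2 to 36.7 CPM in saline hearts and 86.6 to 350 at 4 days. At 8 and 11 days they summed to 31.7 to 197 and 21.6 to 72.1 CPM. Most of that was Nppa, with 104487 counts over the 15 libraries, against 485 for Myl4, 42 for Myl7, 22 for Sln and 15 for Bmp10. The library 8-day A differed from all others in that 15.8% of its counts fell on the ribosomal RNA-related entries CT010467.1 and Lars2, against 0.092% or less elsewhere. The members were mostly of low to moderate count: Mx1, the scarcest, had between 2 and 140 counts a library, and Ifi27l2a between 36 and 1454.

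After 4 days of isoproterenol 20 of the 40 interferon-stimulated genes were higher than in saline hearts and 1, Iigp1, was lower. The same test called 6.05% of all genes higher and 3.4% lower. After 8 days 5 members were higher and 0 lower, against 1.07% and 1.2% of all genes, and after 11 days 10 were higher and 0 lower, against 1.8% and 1.95%. A gene was called when its edgeR quasi-likelihood p-value, adjusted by the method of Benjamini and Hochberg over the 26862 genes, was under 0.05. At 8 and 11 days, 0 and 2 members were lower at an unadjusted p under 0.05, and DESeq2 also called 0 lower at either time. In either direction, 5959, 3494 and 4617 of the 26862 genes had an unadjusted p under 0.05 at 4, 8 and 11 days. These totals belong beside each later count at that p against saline. Positive log2 fold changes were more frequent than calls. At 4 days 37 of 40 members were positive with a median of 0.50, at 8 days 38 with a median of 0.40, and at 11 days 38 with a median of 0.55. Over all genes 50.7%, 48.3% and 48.5% were positive, with medians of 0.01, −0.01 and −0.01. In 12 members every 4-day library lay above every saline library, against 8% of all genes. That was so for 8 members at 8 days and 8 at 11 days, against 6.88% and 5.85%. In bulk tissue, more cells of a type and more RNA per cell cannot be told apart, and this holds for each result below.

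**Figure D1:**
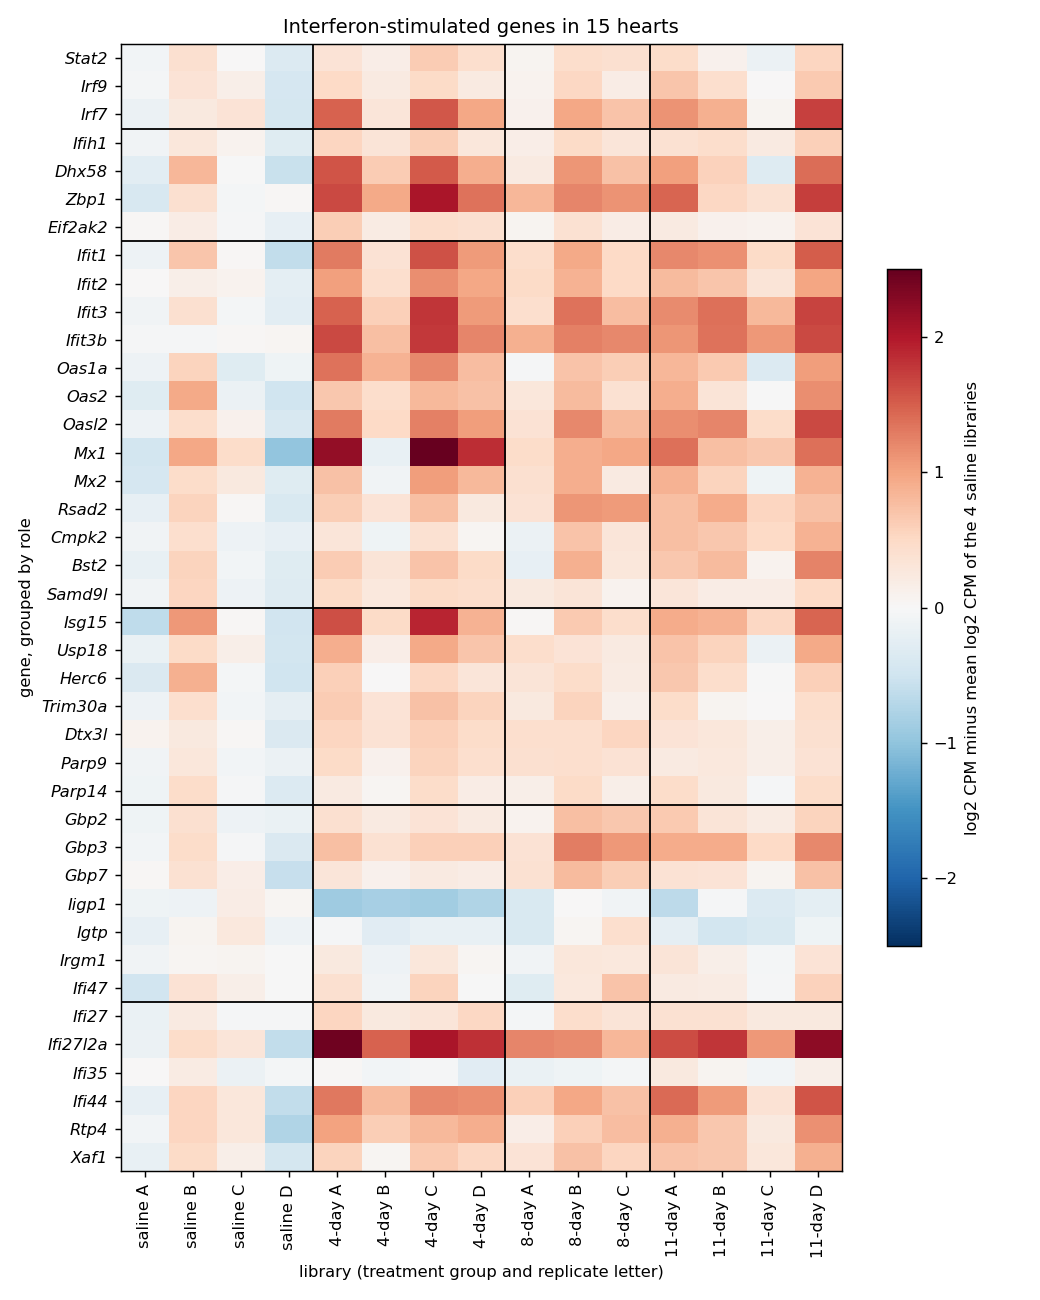
Level of each of the 40 genes (rows, grouped by role and separated by lines) in each of the 15 libraries (columns, by group), as log2 CPM minus the mean log2 CPM of the 4 saline libraries, with red above and blue below that mean. Most rows are redder in 4-day A and 4-day C, in 8-day B and in 11-day D than in the other libraries of their groups, saline B is the reddest saline library in 35 of 40 rows, and Iigp1 is blue in all 4 4-day libraries.

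These calls rested in part on single libraries. Of the 21 calls at 4 days, 10 held whichever of the 8 libraries was left out (Irf7, Zbp1, Ifi44, Oasl2, Ifit2, Oas1a, Iigp1, Ifit3b, Ifit3 and Ifi27l2a). Of the 5 at 8 days only Ifit3b held in each of the 7 such fits, and of the 10 at 11 days 7 held (Cmpk2, Gbp3, Oasl2, Ifit2, Ifit3b, Ifit3 and Ifi27l2a). Without saline B, the saline heart with the highest levels, the numbers of members higher were 31, 14 and 20 at 4, 8 and 11 days. The 4-day number was 9 without 4-day A or without 4-day C, 10 when saline A was left out, 11 when saline C was, and 13 when saline D or 4-day D was. The 8-day number was 1 without saline A or 8-day B, 2 without saline D or 8-day C and 3 without saline C. Without 8-day A, the library with the ribosomal entries, it was 7.

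The Ifit genes make proteins that bind viral RNA and hold back its translation. Ifit1, Ifit2, Ifit3 and Ifit3b lie side by side on chromosome 19, with gaps of 7.1, 19.2 and 27.5 kb, and all 4 were higher after 4 and 11 days. Ifit3b was measured at 2.0, 2.0, 2.1 and 2.11 CPM in saline A to D, at 6.46, 3.47, 6.98 and 4.78 in 4-day A to D, at 3.78, 4.95 and 4.72 in 8-day A to C, and at 4.42, 5.29, 4.34 and 6.43 in 11-day A to D. The saline hearts were thus nearly identical and every treated heart lay above them. Its log2 fold change was 1.42 ± 0.19 (SE; edgeR adjusted p = 0.000672) at 4 days, 1.12 ± 0.15 (0.00167) at 8 days and 1.32 ± 0.14 (0.000229) at 11 days. Ifit3 stood at 5.27, 7.47, 5.42 and 4.69 CPM in saline A to D, at 15.6, 8.53, 19.4 and 11.8 in 4-day A to D, at 7.53, 14.3 and 9.57 in 8-day A to C, and at 12.8, 14.6, 9.83 and 18.1 in 11-day A to D. No treated heart fell below a saline heart, but 8-day A and saline B were nearly level. The log2 fold changes of Ifit3 were 1.29 ± 0.21, 0.86 ± 0.20 and 1.27 ± 0.17, with edgeR adjusted p of 0.00197, 0.0343 and 0.00131. Its 8-day call was lost without saline A, saline C, saline D, 8-day B or 8-day C (adjusted p 0.0718 to 0.179). It was also lost in 5 other settings of the fit (0.05 to 0.1).

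Ifit3 and Ifit3b are near copies, and 51.2% of the 50-base words in the transcripts of Ifit3 also occur in Ifit3b, so that the split of reads between them is uncertain. With their counts added into 1 gene, the log2 fold changes were 1.33, 0.94 and 1.28 at 4, 8 and 11 days, with edgeR adjusted p of 0.0011, 0.00722 and 0.000504. Ifit2 shares none of its words with another gene. It stood at 7.69, 8.44, 8.06 and 6.46 CPM in saline A to D, at 15.6, 10.1, 17.1 and 15 in 4-day A to D, at 10.6, 13.9 and 10.8 in 8-day A to C, and at 13.2, 12.3, 9.52 and 15.2 in 11-day A to D. Here too the treated and the saline hearts did not overlap at any time. Against saline, Ifit2 had log2 fold changes of 0.92 ± 0.14, 0.60 ± 0.13 and 0.70 ± 0.13 (edgeR adjusted p = 0.00146, 0.0232 and 0.00885), and the 8-day call was lost without saline A, saline D, 8-day B or 8-day C (0.0549 to 0.136). Ifit1 had 2.66, 4.71, 2.96 and 1.90 CPM in saline A to D, 7.19, 3.72, 8.80 and 6.05 in 4-day A to D, 3.93, 5.63 and 4.08 in 8-day A to C, and 6.71, 6.39, 4.05 and 8.24 in 11-day A to D. Saline B lay above the lowest heart of each treated group. Against saline, Ifit1 had log2 fold changes of 1.09 ± 0.26 at 4 days and 1.05 ± 0.23 at 11 days (edgeR adjusted p = 0.0177 and 0.0249), with 0.55 ± 0.24 (0.331) at 8 days. The 4-day call was lost without saline A, saline C, 4-day A or 4-day C (0.0525 to 0.0645), and the 11-day call without saline A, saline C, 11-day A, 11-day B or 11-day D (0.0598 to 0.0742).

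The upstream sequences of several members are shown because they hold letters that match the core of the element to which the interferon complex binds. Binding was not measured. The core of the interferon-stimulated response element was searched as GAAANNGAA on both strands in the 250 bases before each start in RefSeq's promoters (GRCm38.p6), where 28 members had an entry. It was found in 15 of the 28 (53.6%), against 8.18% of all 27025 genes in that table. Overlapping matches were counted separately. GAS, searched as TTCNNNGAA, was found in 6 of the 28 members (21.4%), against 8.13% of all genes. Each sequence below runs 5′ to 3′ on the strand of its gene and ends at the base before the start, with matches to the response element core in capitals. Ifit1, Ifit3 and Ifit3b had 3 matches each (Ifit1 from −109 to −84, Ifit3 from −155 to −102 and Ifit3b from −187 to −134, counted from the start to the first base of the match). A stretch of bases shortly after each RefSeq start was looked up in the transcripts of the gene annotation used here. It was not found for Ifit3b, and it was found for 27 of 32 promoter entries of members. Whether the start itself lies in a transcript was not checked.
Ifit1, chr19:34640639-34640888, plus strand: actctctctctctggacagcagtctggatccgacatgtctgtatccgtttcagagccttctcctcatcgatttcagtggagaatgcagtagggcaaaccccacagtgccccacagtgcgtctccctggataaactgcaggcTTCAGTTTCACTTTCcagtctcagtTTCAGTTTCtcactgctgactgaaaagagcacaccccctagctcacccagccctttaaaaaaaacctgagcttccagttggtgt
Ifit3, chr19:34583279-34583528, plus strand: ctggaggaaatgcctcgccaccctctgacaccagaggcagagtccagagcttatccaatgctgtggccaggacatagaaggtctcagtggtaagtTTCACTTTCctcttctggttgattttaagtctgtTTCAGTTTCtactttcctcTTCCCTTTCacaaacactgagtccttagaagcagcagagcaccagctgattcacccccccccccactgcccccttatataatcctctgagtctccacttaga
Ifit3b, chr19:34607707-34607956, plus strand: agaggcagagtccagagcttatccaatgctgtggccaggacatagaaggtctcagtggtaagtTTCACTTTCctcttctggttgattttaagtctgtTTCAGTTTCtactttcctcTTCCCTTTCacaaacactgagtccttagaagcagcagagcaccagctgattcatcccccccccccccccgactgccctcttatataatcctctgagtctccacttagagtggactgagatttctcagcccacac
Outside the Ifit cluster the place of the core varied, with Stat2 at −221 the farthest from its start. The stretch after that RefSeq start of Stat2 was not found in the annotated transcripts either. Of those shown, Oas1a had matches at −20 and −14, Gbp3 at −44 and −38, Isg15 3 between −78 and −66, and Igtp 1 match at −34.
Oas1a, chr5:120907526-120907775, minus strand: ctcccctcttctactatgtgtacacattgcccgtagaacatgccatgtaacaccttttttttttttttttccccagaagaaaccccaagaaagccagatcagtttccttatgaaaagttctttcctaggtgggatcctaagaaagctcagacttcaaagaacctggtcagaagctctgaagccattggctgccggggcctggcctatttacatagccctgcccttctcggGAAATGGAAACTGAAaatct
Gbp3, chr3:142559794-142560043, plus strand: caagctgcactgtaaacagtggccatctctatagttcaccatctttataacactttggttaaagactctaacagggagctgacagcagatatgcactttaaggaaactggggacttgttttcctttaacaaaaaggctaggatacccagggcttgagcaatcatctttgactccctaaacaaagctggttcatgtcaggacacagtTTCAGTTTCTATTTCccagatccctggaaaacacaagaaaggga
Isg15, chr4:156200819-156201068, minus strand: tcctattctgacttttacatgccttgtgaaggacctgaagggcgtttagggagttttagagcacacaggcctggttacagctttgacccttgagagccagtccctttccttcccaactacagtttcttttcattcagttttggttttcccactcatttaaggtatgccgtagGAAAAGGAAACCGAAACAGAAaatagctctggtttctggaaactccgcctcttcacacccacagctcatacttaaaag
Igtp, chr11:58199306-58199555, plus strand: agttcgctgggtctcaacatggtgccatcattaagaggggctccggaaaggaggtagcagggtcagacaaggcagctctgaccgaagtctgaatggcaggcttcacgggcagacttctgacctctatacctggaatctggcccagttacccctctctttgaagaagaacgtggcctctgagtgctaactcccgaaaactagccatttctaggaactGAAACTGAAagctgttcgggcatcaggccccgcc
Calls occurred with and without a match. Gbp3, Ifih1, Ifit1, Ifit3, Ifit3b, Oas1a, Rsad2 and Trim30a hold the core and were called higher at 1 or more times. Bst2, Gbp2, Gbp7, Igtp, Irgm1, Isg15 and Stat2 hold it and were not called by edgeR at any time. Without the core letters in this window, Ifit2, Oasl2, Ifi44, Irf7, Cmpk2, Dtx3l and Eif2ak2 were called higher at 1 or more times. Herc6, Ifi35, Ifi47, Irf9, Samd9l and Xaf1 also lack them and were not called. Whether match and call go together was not tested.

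Of all 13 antiviral effectors, the 4 Ifit genes included, 7 were higher at 4 days, 3 at 8 days and 7 at 11 days, and 0 were lower. For all genes the shares were 6.05%, 1.07% and 1.8% higher and 3.4%, 1.2% and 1.95% lower. All 13 log2 fold changes of the effectors were positive at each time, with medians of 0.92, 0.55 and 0.70. Oasl2, an oligoadenylate synthetase-like protein that binds RNA, stood at 3.53, 5.26, 4.16 and 2.91 CPM in saline A to D, at 9.5, 5.44, 9.24 and 7.98 in 4-day A to D, at 4.97, 8.89 and 6.73 in 8-day A to C, and at 8.72, 8.98, 5.34 and 12.2 in 11-day A to D. All 4-day and 11-day hearts lay above all saline hearts, 4-day B and 11-day C by little. The log2 fold changes of Oasl2 were 1.03 ± 0.19 (edgeR adjusted p = 0.00398) at 4 days, 0.77 ± 0.20 (0.0747) at 8 days and 1.14 ± 0.22 (0.0102) at 11 days. The 11-day call of Oasl2 was lost with robust dispersions (0.0807), and DESeq2 also called it at 8 days (0.0158). Oas1a, a synthetase of the messenger that activates RNase L, was higher at 4 days, with 2.49 ± 0.485 CPM in 4-day hearts and 1.22 ± 0.351 in saline hearts (SD, n = 4 each; log2 fold change 1.09 ± 0.21, edgeR adjusted p = 0.00482). Oas1a shares 57.6% of its words with Oas1g, and with both counted as 1 gene the 4-day value was 1.08 (0.00921). Mx1, the gene of a dynamin-like GTPase, had the largest 4-day change among the effectors (1.89 ± 0.50, edgeR adjusted p = 0.0315), on few counts: 0.835, 0.154, 1.3 and 0.654 CPM in 4-day A to D against 0.126, 0.353, 0.245 and 0.0844 in saline A to D. 4-day B lay within the saline range, and the Mx1 call was lost without saline A, saline C, saline D, 4-day A, 4-day C or 4-day D (0.0561 to 0.129).

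Rsad2 (viperin, which makes a chain-terminating nucleotide) and its divergent neighbour Cmpk2 (a mitochondrial nucleotide kinase), 12.8 kb apart on chromosome 12, were called by edgeR at 11 days and not at 4 or 8 days. Cmpk2 stood at 3.76, 5.35, 3.66 and 3.46 CPM in saline A to D, at 4.92, 3.72, 5.24 and 4.16 in 4-day A to D, at 3.60, 6.56 and 4.94 in 8-day A to C, and at 6.77, 6.36, 5.63 and 7.26 in 11-day A to D. The 11-day hearts lay above all saline and all 4-day hearts. Its log2 fold change was 0.17 ± 0.16 (edgeR adjusted p = 0.585) at 4 days, 0.30 ± 0.20 (0.588) at 8 days and 0.68 ± 0.14 (0.0136) at 11 days. Rsad2 averaged 13.0 ± 1.48 CPM in 11-day hearts and 7.98 ± 2.41 in saline hearts (SD, n = 4 each; log2 fold change 0.69 ± 0.16, edgeR adjusted p = 0.0293). The 4-day and 8-day values of Rsad2 were 0.47 ± 0.17 (0.117) and 0.83 ± 0.21 (0.0551), and its 8-day value was called by DESeq2 (0.00657) and with all groups in one fit (0.0203). The 11-day call of Rsad2 held only when saline B or 11-day C was left out and was lost without any of the other 6 libraries (0.0518 to 0.0856). The effectors Oas2, Mx2, Samd9l and Bst2, the tetherin that holds budding virions at the cell surface, were not called by edgeR at any time, with log2 fold changes at 4 days of 0.57, 0.65, 0.38 and 0.52 and at 11 days of 0.57, 0.54, 0.26 and 0.72. Mx2 is annotated as a polymorphic pseudogene, and whether these mice make working Mx1 or Mx2 protein was not examined. DESeq2 called Bst2 higher at 4 days (0.0368) and 11 days (0.0239).

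**Figure D2:**
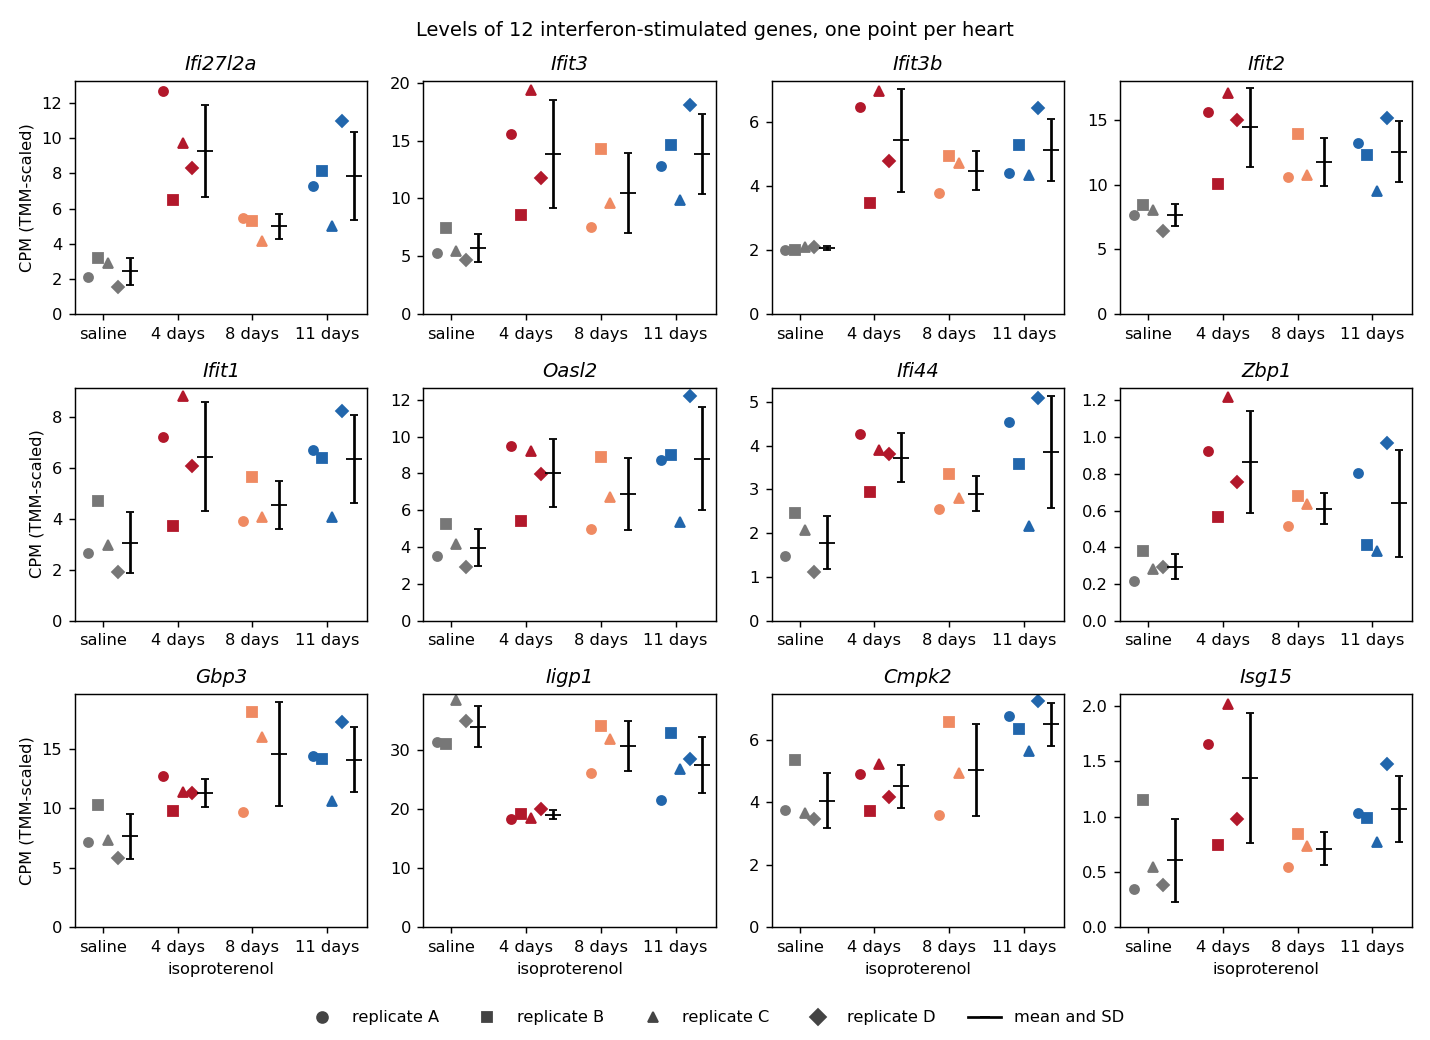
CPM of 12 interferon-stimulated genes in each heart (point shape gives the replicate letter) by group, with the group mean and SD in black, each panel starting at 0. Ifit3b lies at 3.47 CPM or more in treated hearts and between 2.0 and 2.11 in saline hearts, Iigp1 lies at 20 CPM or less in 4-day hearts and at 30.9 or more in saline hearts, and Cmpk2 is highest in the 11-day hearts.

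The sensors of foreign nucleic acid were higher at 4 days, all 4 of them, and 0 were called at 8 or 11 days. The shares of all genes called higher were 6.05%, 1.07% and 1.8% at 4, 8 and 11 days. All 4 sensors had positive log2 fold changes at each time, with medians of 0.80, 0.45 and 0.56. At an unadjusted p under 0.05, Zbp1 was higher at 8 days and Zbp1 and Ifih1 at 11 days. DESeq2 called 0 at 8 days and Zbp1 and Ifih1 at 11 days. Zbp1, which detects left-handed nucleic acid and can start necroptosis, stood at 0.216, 0.382, 0.279 and 0.295 CPM in saline A to D, at 0.922, 0.565, 1.22 and 0.753 in 4-day A to D, at 0.518, 0.677 and 0.638 in 8-day A to C, and at 0.806, 0.413, 0.377 and 0.966 in 11-day A to D. All 4-day and 8-day hearts lay above all saline hearts, while 11-day C lay just below saline B. For Zbp1 the log2 fold changes were 1.64 ± 0.29 (edgeR adjusted p = 0.00278), 1.07 ± 0.33 (0.128) and 1.20 ± 0.34 (0.0705). Dhx58, a regulator of RNA sensing, had 1.18 ± 0.29 (0.0208) at 4 days, and its call was lost without saline A, saline C, 4-day A or 4-day C (0.066 to 0.0817). The RNA sensor Ifih1 (0.43 ± 0.12, edgeR adjusted p = 0.0396) and the kinase Eif2ak2, which stops translation on double-stranded RNA (0.42 ± 0.10, 0.0223), changed less. Leaving out any library but saline B or 4-day B ended both of these calls (0.0508 to 0.134 for Ifih1 and 0.0544 to 0.0976 for Eif2ak2).

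Among the transcription factors, Irf7, the factor that amplifies type I interferon production, was higher at 4 days, with 8.47, 3.75, 8.96 and 5.99 CPM in 4-day A to D against 2.74, 3.62, 3.88 and 2.24 in saline A to D. Only 4-day B fell within the saline range. The log2 fold change of Irf7 was 1.12 ± 0.24 (edgeR adjusted p = 0.00998) at 4 days, 0.57 ± 0.21 (0.251) at 8 days and 1.0 ± 0.27 (0.0587) at 11 days. Stat2 and Irf9, which belong to the interferon complex, were not called by edgeR at any time, with 4-day values of 0.38 ± 0.14 (0.122) and 0.34 ± 0.14 (0.169).

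The 7 genes for Isg15, its handling enzymes and the ubiquitin and ADP-ribose modifiers all had positive log2 fold changes at each time. Their medians were 0.48, 0.28 and 0.27 at 4, 8 and 11 days. Among all genes 6.05%, 1.07% and 1.8% were called higher at these times. Of the 7, 0 were called at 8 or 11 days and 3 were higher at 4 days. They were Trim30a, a ubiquitin ligase family member (0.56 ± 0.14, edgeR adjusted p = 0.0187), and the partners Dtx3l (0.48 ± 0.11, 0.0158) and Parp9 (0.40 ± 0.12, 0.0458), a ubiquitin ligase and an ADP-ribosyltransferase-like protein whose genes overlap by their ends on opposite strands of chromosome 16. Without strand in the counting, reads of that overlap could not be assigned, and it covers 8.0% of the exon bases of Dtx3l and 9.4% of those of Parp9. The Dtx3l call was lost without 4-day A or 4-day C (0.0529 and 0.0557), the Trim30a call without saline A, saline C, saline D, 4-day A or 4-day C (0.0505 to 0.0676), and the Parp9 call without any library but saline B or 4-day B (0.107 to 0.146). At 8 and 11 days Dtx3l and Parp9 passed an unadjusted p under 0.05, as did Isg15 and Usp18 at 11 days, while DESeq2 called Dtx3l at 8 days and 0 at 11 days. Isg15 itself, the ubiquitin-like tag, had a large change with a large error at 4 days (1.25 ± 0.37, edgeR adjusted p = 0.0516), with 1.66, 0.745, 2.02 and 0.982 CPM in 4-day A to D against 0.342, 1.15, 0.549 and 0.380 in saline A to D. Saline B was above both 4-day B and 4-day D, and DESeq2 called Isg15 and Usp18 higher at this time. Usp18, which removes Isg15 from proteins, had 0.68 ± 0.22 (0.0687) at 4 days, Herc6, the mouse ligase for Isg15, 0.28 ± 0.24 (0.571), and Parp14, the modifier with the highest level per length, 0.21 ± 0.14 (0.438).

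Of the 7 GTPases, Gbp3 was higher at all 3 times, and Iigp1, an immunity-related GTPase that disrupts the vacuoles of intracellular parasites, was lower at 4 days. Calls over all genes were 6.05%, 1.07% and 1.8% higher at 4, 8 and 11 days, and 3.4% lower at 4 days. Iigp1 stood at 31.4, 30.9, 38.4 and 34.9 CPM in saline A to D, at 18.3, 19.1, 18.5 and 20 in 4-day A to D, at 26.0, 34.1 and 31.9 in 8-day A to C, and at 21.5, 32.9, 26.7 and 28.4 in 11-day A to D. The 4-day hearts lay close together, below all saline, 8-day and 11-day hearts. Its log2 fold change was −0.84 ± 0.088 (edgeR adjusted p = 0.000184) at 4 days, −0.15 ± 0.12 (0.641) at 8 days and −0.32 ± 0.11 (0.161) at 11 days. Gbp3, a guanylate-binding protein, went the other way: 7.16, 10.3, 7.38 and 5.82 CPM in saline A to D, 12.7, 9.78, 11.4 and 11.3 in 4-day A to D, 9.70, 18.1 and 16.0 in 8-day A to C, and 14.4, 14.2, 10.6 and 17.3 in 11-day A to D. Saline B was above 4-day B and 8-day A, and below all 11-day hearts. The log2 fold changes of Gbp3 were 0.57 ± 0.14 (edgeR adjusted p = 0.0234), 0.92 ± 0.20 (0.0268) and 0.87 ± 0.16 (0.00906) at 4, 8 and 11 days. The 4-day call was lost without any library but saline B or 4-day B (0.0526 to 0.0878), and the 8-day call without any but saline B or 8-day A (0.0551 to 0.131). Its neighbours Gbp7 and Gbp2, 9.9 and 47.4 kb away on chromosome 3, had 0.16 and 0.30 at 4 days, 0.55 and 0.51 at 8 days, and 0.34 and 0.43 at 11 days, none called by edgeR, while DESeq2 called Gbp2 at 11 days (0.0437). The other immunity-related GTPases Igtp, Irgm1 and Ifi47 had −0.18, 0.14 and 0.26 at 4 days and −0.31, 0.20 and 0.24 at 11 days, also with no call by either tool.

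Ifi27l2a, a small hydrophobic membrane protein, had the largest log2 fold change of the 40 genes at 4 days, with Mx1 close behind. It stood at 2.12, 3.21, 2.91 and 1.52 CPM in saline A to D, at 12.7, 6.50, 9.71 and 8.31 in 4-day A to D, at 5.49, 5.29 and 4.18 in 8-day A to C, and at 7.29, 8.12, 5.0 and 11.0 in 11-day A to D. The groups did not overlap with saline at any time. The log2 fold changes of Ifi27l2a were 1.91 ± 0.22 (edgeR adjusted p = 0.000344), 1.0 ± 0.21 (0.0232) and 1.65 ± 0.23 (0.00156), and the 8-day call ended when 8-day A, 8-day B or saline A was left out (0.0742 to 0.103). Its neighbour Ifi27, 1.9 kb away on chromosome 12, changed less, with 0.41 ± 0.11 (0.0401) at 4 days, a call that ended without any library but saline B or 4-day B (0.0616 to 0.156). Ifi44 stood at 1.48, 2.47, 2.07 and 1.10 CPM in saline A to D, at 4.26, 2.95, 3.89 and 3.80 in 4-day A to D, at 2.56, 3.34 and 2.81 in 8-day A to C, and at 4.54, 3.58, 2.17 and 5.09 in 11-day A to D. Only 11-day C, among the treated hearts, fell within the saline range. The log2 fold changes of Ifi44 were 1.05 ± 0.21 (edgeR adjusted p = 0.00581), 0.67 ± 0.24 (0.201) and 1.08 ± 0.26 (0.0318), and the 11-day call was lost without any library but saline B or 11-day C (0.0583 to 0.0988), with robust dispersions (0.108) and with effective lengths as offsets (0.126). Rtp4, a chaperone of surface receptors, was higher at 4 days (0.75 ± 0.20, 0.0345), a call that ended when 4-day A, 4-day C, 4-day D or saline A was left out (0.0718 to 0.11). Xaf1 and Ifi35 were not called by edgeR at any time, with 0.42 ± 0.18 and −0.07 ± 0.11 at 4 days and 0.60 ± 0.17 and 0.10 ± 0.10 at 11 days, and DESeq2 called Xaf1 at 11 days (0.0205).

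**Figure D3:**
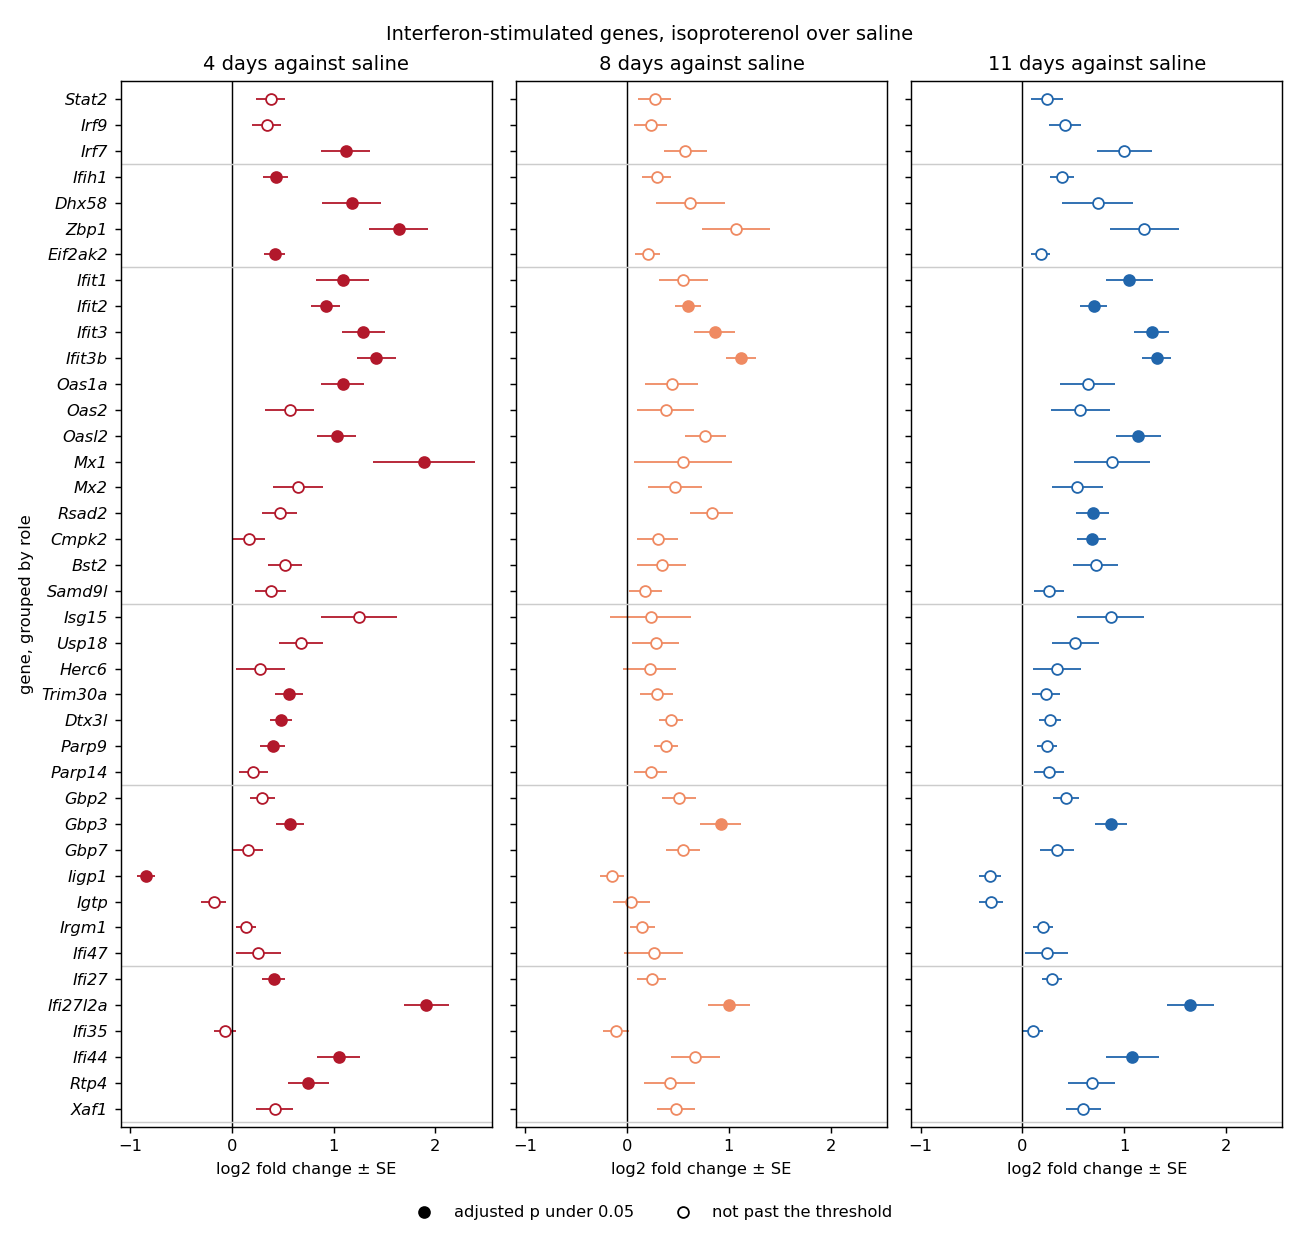
Log2 fold change of each of the 40 genes (rows, grouped by role) against saline at 4, 8 and 11 days, with the standard error as a bar. Filled points passed an adjusted p of 0.05 in edgeR: 21, 5 and 10 genes in the 3 panels, with Iigp1 the only filled point left of 0.

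Compared directly, few of the 40 genes differed between the treated groups. At 8 days against 4 days 1 member was higher and 0 lower (against 0.0596% and 0.19% of all genes), with a median log2 fold change of −0.18. The 1 was Iigp1 (0.69 ± 0.099, edgeR adjusted p = 0.0227), and its call was lost without 4-day D (0.0661) or 8-day B (0.115) and with library size alone as the scaling (0.316). At 11 days against 4 days 2 members were higher and 0 lower, against 3.75% and 6.55% of all genes, with a median of −0.06. These were Iigp1 (0.52 ± 0.10, 0.00609) and Cmpk2 (0.50 ± 0.12, 0.0135). The Cmpk2 call was lost with library size alone (0.141) and with all groups in one fit (0.0543). At 11 days against 8 days 0 were higher and 0 lower, against 0.0596% and 0.0782%, with a median of 0.12. Lower members at an unadjusted p under 0.05 numbered 8, 4 and 1 in these 3 comparisons, and higher ones 2, 3 and 4. Of all 26862 genes, 3101, 6228 and 3021 passed that p in either direction. DESeq2 called 1 lower at 8 against 4 days (Ifi27l2a) and 0 lower in the other comparisons, and 0 higher at 11 against 8 days. No member called at 4 or 11 days but not at 8 days was called lower at 8 days in the direct comparison, and the 8-day group had 3 hearts in place of 4.

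Set side by side per length, the members spanned a wide range of levels. In FPKM (fragments scaled to transcript length and library size, averaged over all 15 hearts), Ifi27l2a had 21.8, Ifi27 12.5, Iigp1 11.1, Bst2 9.72 and Ifit3 7.20, and at the other end Dhx58 had 0.762, Zbp1 0.507 and Mx1 0.387. Stat2 was the highest of the transcription factors (4.41) and Eif2ak2 of the sensors (3.45). The order was another in saline hearts, where Iigp1 led with 13.0 FPKM and Ifi27l2a followed Ifi27 with 8.18 against 9.94.

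Hearts of one group differed from each other in most members at once. Of the 40 genes, 35 were highest among saline hearts in saline B and 29 lowest in saline D. In the treated groups 33 were lowest in 4-day B, 31 in 8-day A and 38 in 11-day C, and 32 were highest in 8-day B and 30 in 11-day D. Averaged over the 40 genes, the log2 level relative to the saline mean was −0.16, 0.43, 0.06 and −0.33 in saline A to D, 0.81, 0.28, 0.87 and 0.59 in 4-day A to D, 0.23, 0.69 and 0.51 in 8-day A to C, and 0.70, 0.56, 0.19 and 0.90 in 11-day A to D. Saline B thus exceeded 4-day B, 8-day A and 11-day C.

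Markers of other cell types moved with treatment as well. Over all genes, 6.05%, 1.07% and 1.8% were called higher and 3.4%, 1.2% and 1.95% lower at 4, 8 and 11 days. At an unadjusted p under 0.05, 5959, 3494 and 4617 of 26862 genes passed in either direction. Of 15 macrophage and monocyte markers 12 were higher at 4 days, 0 at 8 days and 1 at 11 days, with medians of 0.93, 0.38 and 0.24. At 11 days 1 was lower, and at 8 days 3 were higher at an unadjusted p under 0.05. Their summed level was 115 to 185 CPM in saline hearts, 224 to 383 at 4 days, 169 to 239 at 8 days and 171 to 207 at 11 days. Of 8 fibroblast markers 8, 4 and 2 were higher at 4, 8 and 11 days, with summed levels of 313 to 385 CPM in saline hearts, 759 to 2540 at 4 days, 458 to 834 at 8 days and 422 to 794 at 11 days, while of 7 endothelial markers 0 were called at any time (at an unadjusted p under 0.05, 1 lower at 4 days and 1 higher at 8 and at 11 days). Among the macrophage markers 11 were lower at 11 days than at 4 days. In that comparison 0 of the 40 interferon-stimulated genes were called lower, against 6.55% of all genes, and 4 were lower at an unadjusted p under 0.05. Single hearts also differed between the lists. The 40 genes were lowest of the 11-day hearts in 11-day C, at 0.19, where the macrophage and fibroblast averages, 0.42 and 1.24, were the highest of the 11-day hearts. In 4-day B all 3 averages were the lowest of their group (0.28, 0.39 and 1.13). Of 9 cardiomyocyte markers 3 were lower at 4 days (Mb, Myl3 and Tnni3, with −0.50, −0.45 and −0.50) and 1, Myl3, at 8 and at 11 days (−0.46 and −0.35), and 0 were higher. The summed level of 11 T and NK cell markers was 1.28 to 1.59 CPM in saline hearts, 0.668 to 1.21 at 4 days, 0.67 to 1.23 at 8 days and 0.469 to 0.769 at 11 days, and Cd3e was at 0 in 6 of the 15 libraries. No gene of that list was called, and 4 had negative fold changes at 11 days at an unadjusted p under 0.05. That of 5 B cell markers was 3.25 to 4.88, 2.59 to 5.21, 3.0 to 5.61 and 2.25 to 2.99 CPM in the same order, with Cd79a lower at 11 days (−1.79, edgeR adjusted p = 0.0317). Of 5 plasmacytoid dendritic cell markers, 1 of them the member Bst2, Pacsin1 was higher at 4 days (1.81 ± 0.49, 0.0349), while Siglech had −0.76 ± 0.50 (0.425) and 70.5 counts in all 15 libraries together. The part of cell numbers in the levels of the 40 genes was not tested.

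**Figure D4:**
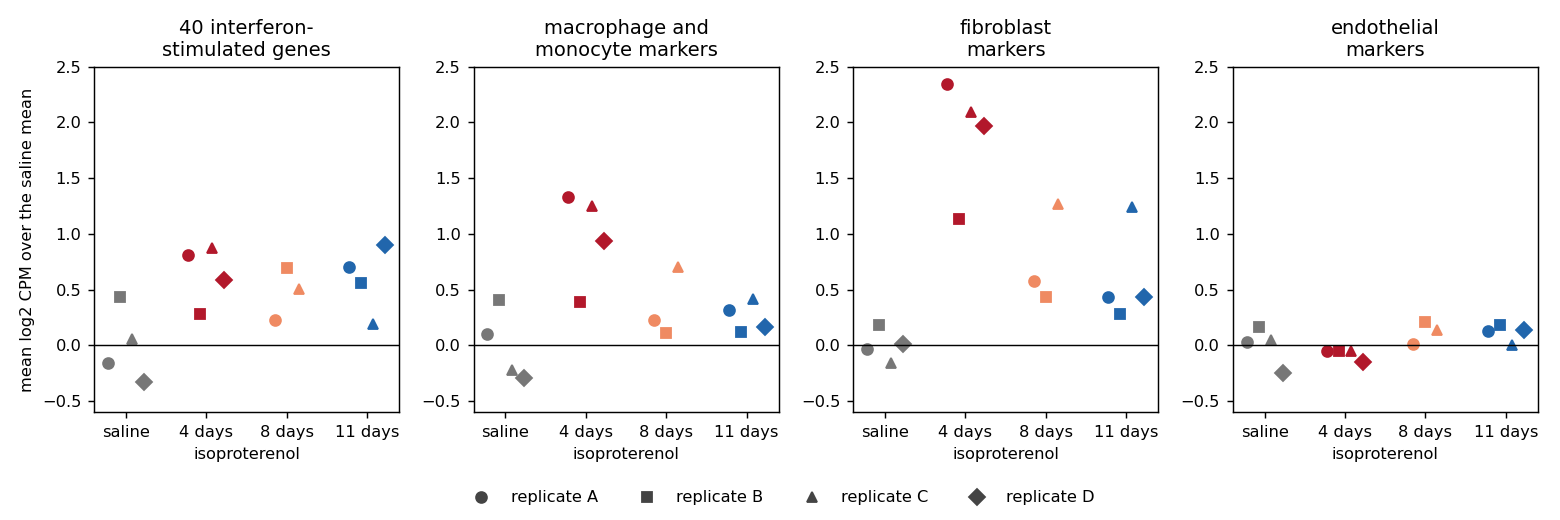
Mean log2 CPM relative to the saline mean in each heart, averaged over the 40 interferon-stimulated genes, 15 macrophage and monocyte markers, 8 fibroblast markers and 7 endothelial markers, with one point per heart. The macrophage and fibroblast averages are highest at 4 days (0.39 to 1.33 and 1.13 to 2.34), whereas the interferon-stimulated genes reach 0.28 to 0.87 at 4 days and 0.19 to 0.90 at 11 days, and the endothelial averages stay between −0.25 and 0.21.

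Upstream of the members, transcripts of the interferon genes listed next were at or near 0 in these libraries. Other interferon genes, further Ifna genes among them, were not looked at. Ifnb1, Ifng, Ifna1, Ifna4, Ifna5, Ifnl2 and Ifnl3 had 0 counts in all 15 libraries, Ifna2 and Ifne 1 count each, and Ifnk 28 counts over 10 libraries, with no difference past the threshold. A count of 0 limits the transcripts in this piece of tissue at the times sampled and says nothing of circulating interferon protein. The receptor chains Ifnar1 and Ifnar2 had log2 fold changes of 0.16 and 0.13 at 4 days, 0.21 and 0.04 at 8 days, and 0.00 and 0.07 at 11 days, and 0 of 6 receptor genes were called (1 lower at 4 days and 1 higher at 11 days at an unadjusted p under 0.05). Of 39 pathway genes tested, 4 were higher at 4 days, 2 at 8 days and 2 at 11 days, against 6.05%, 1.07% and 1.8% of all genes. At these times 0 were lower, against 3.4%, 1.2% and 1.95%. Stat3 (0.33, edgeR adjusted p = 0.0448) and Ddx58, the RNA sensor RIG-I (0.51, 0.0333), were higher at 4 days and were not called at 8 or 11 days. Ikbke, a kinase that activates interferon regulatory factors, was higher at 4 and 8 days (1.13 ± 0.23, 0.00657, and 1.23 ± 0.27, 0.0281), with 0.48 (0.187) at 11 days. Jak1 was higher at 8 and 11 days (0.59 ± 0.11, 0.0125, and 0.52 ± 0.10, 0.0136), and Jak2 at 11 days (0.39 ± 0.07, 0.00829).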

How the data were processed

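Total RNA libraries (Illumina TruSeq total RNA kit) of 15 mouse hearts were used. Trimming by the authors was with cutadapt 4.1, alignment with HISAT2 2.2.1 to GRCm38.p6 and quantification with RSEM 1.3.3, as the submitters' notes list these tools. The authors deposited, for each library, expected counts per gene (estimated counts that need not be whole) with effective lengths and FPKM values. The strand setting is not given in the sources used here. Deposited isoform tables were not used.

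Rounded counts were used, for genes whose sum over the 15 libraries was 10 or more. Each comparison was fitted on its 2 groups with edgeR 4.0.16 (TMM, quasi-likelihood F-test, two-sided, Benjamini-Hochberg) in R 4.3.3, after the code had been tested on simulated data. FPKM values served only for levels between genes. Nothing in the labels names a batch, and the p-values measure the spread between the hearts sequenced. Alternatives were library size alone, DESeq2 size factors, no filter, filterByExpr, all groups in one fit, robust dispersions, effective lengths as offsets, DESeq2 1.42.0, the replicate letter as a block, and each library left out. Adding near-identical copies together was chosen after seeing the data. Positions and shared 50-base words came from GENCODE M21, in which 38 of the 40 member identifiers were the same as in the tables, and promoters from RefSeq, both GRCm38.p6.

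The members, the pathway list, the list of other interferon-induced genes and the marker lists were chosen with earlier results of these data known. Each member past the threshold was named, as were the highest in level and in 4-day change of each role. Every library was printed for members called at 2 or more times against saline and for the 6 of smallest p at 4 days. A few more were printed after their values were seen (Cmpk2, Mx1, Irf7 and Isg15). The values of 1 pathway gene are not reported here.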

Additional observations from a re-analysis of the deposited data

Results flagged for a closer look

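Of 120 groups of 4 hearts examined (each member in the saline, 4-day and 11-day groups), 3 held a heart far from the other 3, where chance gives about 1 in 20. All 3 were saline B: Oas2 at 8.03 CPM against 2.95 to 3.75 in the other saline hearts, Cmpk2 at 5.35 against 3.46 to 3.76, and Gbp2 at 11.4 against 7.64 to 8.01.

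Between times, 3 differences passed their own test in edgeR. Iigp1 was higher at 8 days than at 4 days by a log2 fold change of 0.69 (adjusted p = 0.0227) and at 11 days than at 4 days by 0.52 (adjusted p = 0.00609), being above every 4-day heart in 3 of 3 and 4 of 4 hearts. Cmpk2 was higher at 11 days than at 4 days by 0.50 (adjusted p = 0.0135), in 4 of 4 hearts, a call lost with library size alone (0.141) or all groups in one fit (0.0543).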

How the results depend on the processing

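No called value took the opposite sign under any alternative. Of 3972 member values recomputed, 119 lost a call and 94 gained one. With robust dispersions the 4-day calls of Mx1 and Ifit1 were lost (edgeR adjusted p 0.065 and 0.0858). So were the 8-day call of Gbp3 (0.171) and the 11-day calls of Rsad2 and Ifit1 (0.0807 and 0.126). Effective lengths as offsets ended the 4-day calls of Parp9, Eif2ak2, Rtp4 and Ifi27 (0.0759 to 0.114) and the 11-day call of Rsad2 (0.0795). The 8-day call of Ifi27l2a was lost with these offsets (0.0503) or library size only (0.0617), and that of Ifit2 with the latter (0.504). Members higher at 8 days numbered 5, but 8 with no low-count filter or with DESeq2 and 3 with robust dispersions or effective lengths as offsets. At 11 days 10 became 16 with DESeq2. At 8 against 4 days the 1 higher member became 0 with library size only or filterByExpr and 2 with DESeq2, and 0 lower became 1 with library size only, no low-count filter, DESeq2 or the replicate block. At 11 against 4 days the 2 higher became 1 with library size only or all groups in one fit, and 0 lower became 1 with library size only or effective lengths as offsets. With each library left out in turn, the number higher ranged between 9 and 31 at 4 days, 1 and 14 at 8 days, 7 and 20 at 11 days, and 0 and 1 at 8 against 4 days, and the number lower between 0 and 4 at 8 and at 11 against 4 days. The causes were not tested. Library size only moved the median over all genes to 0.209, −0.103 and 0.06 at 4, 8 and 11 days, and that of the members to 0.69, 0.32 and 0.61.

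Replicate letters only name the hearts: in 4 of 21 same-letter pairs the deviations correlated above 0.1 (−0.32 to 0.23). With the replicate block, 18, 7 and 10 members were higher at 4, 8 and 11 days. Depth limits Mx1, Zbp1 and Isg15 most, with as few as 2, 7 and 9 counts in a library.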

Other observations

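A further 71 interferon-induced genes outside the 40 were tested beside them. At 4 days 14 were higher and 2 lower, against 6.05% and 3.4% of all genes. At 8 days 1 was higher and 0 lower, against 1.07% and 1.2%, and at 11 days 8 and 1, against 1.8% and 1.95%. The median log2 fold changes were 0.36, 0.27 and 0.26. At 4 days the smallest p-values were those of Ifi204, a DNA-binding protein of the p200 family (1.06 ± 0.20, edgeR adjusted p = 0.00529), Ifitm3, which blocks the entry of viruses from endosomes (0.57 ± 0.11, 0.00606), Ly6e (0.46 ± 0.094, 0.00709) and Ifi209 (1.21 ± 0.27, 0.0114). Ifi204, Ifitm3 and Ly6e were also higher at 11 days (0.78, 0.63 and 0.43), as were Rnf114 (0.48 ± 0.096, 0.015) and Phf11d (0.61 ± 0.12, 0.0167). The guanylate-binding protein Gbp6 was the 1 gene higher at 8 days (0.90 ± 0.16, edgeR adjusted p = 0.00835) and had 1.05 ± 0.23 (0.0203) at 11 days.

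Of the 71 genes, 2 were lower at 4 days and 1 was lower at 11 days, which is no more than the 3.4% and 1.95% of all genes. Calls outside the 40 members were not refitted with libraries left out. Gbp4 (−0.40 ± 0.12, edgeR adjusted p = 0.044) and Tgtp2 (−0.61 ± 0.18, 0.0496) were lower at 4 days, both close to the threshold. They had 0.61 and 0.52 at 8 days and 0.08 and 0.14 at 11 days, none of these later values being called. Ifit1bl1, a relative of Ifit1, was lower at 11 days (−0.65 ± 0.14, edgeR adjusted p = 0.021), with every treated heart below every saline heart at all 3 times.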
